A study of Mus musculus with 16 samples.

Results

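In all, 10 genes of MHC class I and antigen processing were followed in mouse CD8+ T cells after a guide RNA had been aimed at Tardbp. They were chosen by their GENCODE M21 symbol and are 10 of the 55536 annotated genes in the deposited count table. H2-K1, H2-D1 and B2m make the class I molecule, and Tap1, Tap2 and Tapbp load it with peptide. Psmb8, Psmb9 and Psmb10 make the peptides, and Nlrc5 drives the transcription of class I genes. All 10 passed the filter on low counts.

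The product of Tardbp is TDP-43, which binds RNA and acts in splicing and in the choice of the 3′ end. The cells were OT-I CD8+ T cells of C57BL/6J background, whose transgenic receptor reads the ovalbumin peptide SIINFEKL and which, per the methods, lack Rag1 or Rag2. Both groups were electroporated with Cas9 and a guide RNA, a scrambled one in Control gRNA (n = 8 libraries) and one against Tardbp in Tardbp gRNA (n = 8). Both were then placed in C57BL/6J recipients given the antigen together with agonist antibodies to OX40 and 4-1BB, and were sorted from spleen and lymph nodes after 4 days by the labels (the methods name a shorter interval). The paper also mentions a stimulation after the cells were purified, and whether the sequenced cells received it is not clear. Libraries are named C1 to C8 and T1 to T8. The edited cells were a population and not 1 clone, so a library can hold cells with and without an edit. By immunoblot of pooled cells, the authors reported that TDP-43 was not produced in cells given the Tardbp guide. Only RNA was measured in these libraries. The recipients' own cells also carry H2-K1, H2-D1 and B2m.

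MHC class I molecules show peptides from inside a cell to CD8+ T cells. The immunoproteasome cuts proteins into peptides, the TAP transporter carries these into the endoplasmic reticulum, and tapasin holds an empty class I molecule at the transporter until a peptide fits. Nearly every cell with a nucleus runs this pathway, and interferon raises it. A CD8+ T cell both reads class I on other cells and carries it on its own surface, where it also serves natural killer cells as a sign of self.

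Control gRNA libraries held 73649630 to 93893357 estimated counts, and Tardbp gRNA libraries 56016533 to 94801105. Tardbp itself was lower in all 8 Tardbp gRNA libraries (135 ± 11.3 CPM, SD, n = 8) than in any Control gRNA library (192 ± 13.3). The RNA concentration before dilution, deposited with no unit, was higher in every Control gRNA library (34.9 to 197.1) than in any of Tardbp gRNA (10.1 to 24), so that concentration and guide cannot be told apart. Cd8a, Cd8b1 and the CD3 genes were high in every library, as the label says, while Cd4 was at or below 0.230 CPM on average in both groups.

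Promoters of 4 genes that rose are shown, with short motifs known from class I promoters, among them those through which interferon and NF-kB act. RefSeq windows (GRCm38.p6) of 250 bases before and 50 bases after the start of transcription were found for 8 of the 10 genes, and Tap2 and Nlrc5 had none. Of the windows of H2-K1, the one nearest the annotated start was taken. Capitals mark matches, on either strand, to 4 motifs. They are the core of the interferon-stimulated response element (GAAA, any 2 bases, GAAA), the interferon gamma activated site (TTC, any 3 bases, GAA), the class I kappa B element (GGGG, ATT and CCCC in a row) and the Y box (CCAAT). H2-K1 lies at chr17:34000298-34000597 on the minus strand, H2-D1 at chr17:35262844-35263143 on the plus strand, B2m at chr2:122147437-122147736 on the plus strand, and Psmb9 at chr17:34187281-34187580 on the minus strand.
H2-K1: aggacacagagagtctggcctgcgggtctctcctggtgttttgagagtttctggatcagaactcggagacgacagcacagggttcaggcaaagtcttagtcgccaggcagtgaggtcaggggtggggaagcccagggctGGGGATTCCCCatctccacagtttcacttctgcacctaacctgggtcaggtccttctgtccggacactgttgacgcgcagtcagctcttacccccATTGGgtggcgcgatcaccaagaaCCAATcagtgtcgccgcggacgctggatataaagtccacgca
H2-D1: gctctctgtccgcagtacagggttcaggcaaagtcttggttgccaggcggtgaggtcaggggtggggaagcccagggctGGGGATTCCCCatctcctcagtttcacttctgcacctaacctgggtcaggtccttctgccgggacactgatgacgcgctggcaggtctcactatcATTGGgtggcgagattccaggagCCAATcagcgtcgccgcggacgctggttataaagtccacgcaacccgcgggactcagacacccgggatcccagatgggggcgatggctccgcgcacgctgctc
B2m: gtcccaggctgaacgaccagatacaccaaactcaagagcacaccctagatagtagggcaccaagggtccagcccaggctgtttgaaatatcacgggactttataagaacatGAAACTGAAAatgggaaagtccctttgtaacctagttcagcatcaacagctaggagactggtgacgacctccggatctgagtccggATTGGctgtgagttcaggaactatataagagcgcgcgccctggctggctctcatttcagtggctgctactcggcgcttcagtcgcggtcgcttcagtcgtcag
Psmb9: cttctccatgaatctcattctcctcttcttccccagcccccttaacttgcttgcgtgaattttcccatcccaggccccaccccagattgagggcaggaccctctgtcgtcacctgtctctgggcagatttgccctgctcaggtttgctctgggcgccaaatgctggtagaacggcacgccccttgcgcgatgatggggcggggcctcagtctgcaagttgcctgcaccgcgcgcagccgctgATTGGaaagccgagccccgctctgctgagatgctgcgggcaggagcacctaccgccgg

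The kappa B element stood 111 bases before the start that sets the window in H2-K1 and 171 bases before that in H2-D1. It was in 10 of all 32851 windows (0.0304%). By the authors' Psi, described below, starts of H2-K1 lay almost all in the segment from 34000258 to 34000289 (0.999 in both groups). This segment lies downstream of the start used here, so these distances cannot be compared between H2-K1 and H2-D1. The response element core, in these strict letters, was in B2m alone of the 8, at 139 bases before the start, and in 3.44% of all windows. Looser forms of the element were not searched, so their absence from the other windows, among them H2-K1 and H2-D1, was not shown. The gamma activated site was in Psmb8 alone, as TTCCCAGAA at 97 bases before the start, and in 8.30% of all windows. A Y box was in 6 of the 8, against 37.4% of all windows, and Psmb10 had no match to any of the motifs. Psmb9 and Tap1 start from 1 shared promoter region on opposite strands. Their windows have 275 bases in common, and the Y box printed for Psmb9 is the same one in the window of Tap1. A match is a run of letters, and no binding was measured here.

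Of the 10 genes, 7 were called between the groups at an adjusted p under 0.05 in edgeR's quasi-likelihood test, against 46.7% of the 16650 genes tested. Of these, 6 were higher in Tardbp gRNA, where 23.5% of all genes were called higher, and 1 was lower, where 23.3% of all genes were. With upper quartile scaling or library totals the split over all genes moved from 3906 higher and 3877 lower to 4865 and 3086, or 4881 and 3135. The median log2 fold change of the 10 was 0.25, beside 0.05 over all genes tested. In 3 of the 10 every Tardbp gRNA library was above every Control gRNA library, as in 6.61% of all genes, and in 0 of the 10 was every one below, as in 10.3% of all genes. The changes were modest in size, from 0.88-fold in Tap2 to 1.30-fold in B2m, and the groups overlapped in the other genes.

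**Figure D1:**
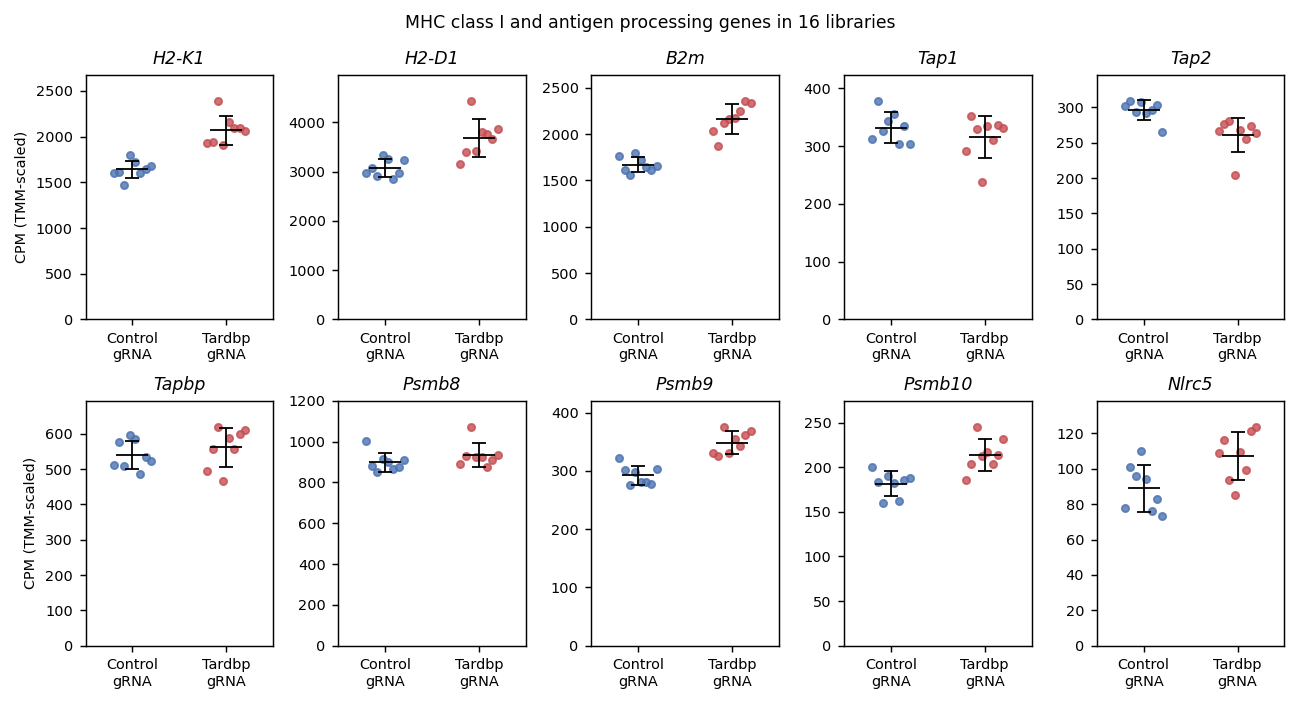
Counts of the 10 genes, scaled to library size by TMM (CPM), in each library, with 8 Control gRNA libraries in blue and 8 Tardbp gRNA libraries in red, bars giving mean and SD and each axis starting at 0. H2-K1, B2m and Psmb9 do not overlap between the groups, while Tap1, Tapbp and Psmb8 overlap over most of their range.

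Transcripts of the class I molecule rose. B2m, on chromosome 2 (122147686 to 122153083), encodes the small light chain that every classical class I molecule needs to reach the surface. It measured 1554 to 1794 CPM in Control gRNA (median 1648) and 1873 to 2360 CPM in Tardbp gRNA (median 2169). All 8 Tardbp gRNA libraries were above all 8 Control gRNA libraries, and the log2 fold change was 0.37 ± 0.045 (SE, adjusted p = 2.2e-06).

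H2-K1 and H2-D1, both on chromosome 17 in the MHC locus (33996017 to 34000347 and 35262730 to 35267499), encode the heavy chains Kb and Db of this strain. Kb is the molecule that presents SIINFEKL to OT-I cells. H2-K1 measured 1469 to 1797 CPM in Control gRNA (median 1632) and 1909 to 2393 CPM in Tardbp gRNA (median 2077), again with no overlap, and rose by 0.34 ± 0.047 on the log2 scale (adjusted p = 1.3e-05). H2-D1 measured 2847 to 3331 CPM in Control gRNA (median 3025) and 3163 to 4438 CPM in Tardbp gRNA (median 3714). In all, 7 of the 8 Tardbp gRNA libraries were above all Control gRNA libraries, and the lowest, T1, was within their range. The log2 fold change of H2-D1 was 0.26 ± 0.057 (adjusted p = 0.00089), a call that was lost with RNA concentration as a covariate.

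Reads of these heavy chains can be hard to place, since 1411 of 1549 aligned bases (91.1%) were identical between their main transcripts, H2-K1-205 and H2-D1-202. Runs of 100 identical bases, the length of a read, were not shared between H2-K1-205 and any other gene, and 4.64% of those of H2-D1-202 were, with H2-Q, H2-T and related genes. When the counts of the 15 H2 class I heavy chain genes were summed before the test, the sum rose from 6442 ± 287 to 7695 ± 613 CPM, with a log2 fold change of 0.26 ± 0.045 (adjusted p = 0.00013).

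Of the genes that bring peptide to the class I molecule, 1 fell and 2 were not called. Tap1 and Tap2 (chromosome 17, 34187553 to 34197225 and 34203527 to 34216321) encode the 2 chains of the TAP transporter. Tap1 measured 303 to 378 CPM in Control gRNA (median 331) and 238 to 352 CPM in Tardbp gRNA (median 331), with a log2 difference of -0.07 ± 0.069 (adjusted p = 0.40). Tap2 fell, from 265 to 309 CPM (median 299) to 204 to 281 CPM (median 267), by 0.18 ± 0.055 on the log2 scale (adjusted p = 0.011). Of the Control gRNA libraries 7 of 8 were above every Tardbp gRNA library. Its call was lost when libraries were scaled by the upper quartile (log2 fold change -0.11, adjusted p = 0.085) or by their totals (-0.11, adjusted p = 0.10). Both groups had 1 library far below the others in Tap2, C8 and T4.

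Tapbp, on chromosome 17 (33915899 to 33929292), encodes tapasin. It measured 487 to 596 CPM in Control gRNA (median 528) and 467 to 619 CPM in Tardbp gRNA (median 573), with a log2 difference of 0.06 ± 0.060 (adjusted p = 0.47). The groups overlapped over most of their range.

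Of the immunoproteasome subunits, Psmb9 and Psmb10 rose and Psmb8 was not called. Psmb8, Psmb9 and Psmb10 encode beta5i, beta1i and beta2i, which replace the constitutive catalytic subunits encoded by Psmb5, Psmb6 and Psmb7. Psmb9, on chromosome 17 (34181987 to 34187764), rose from 276 to 321 CPM (median 290) to 325 to 375 CPM (median 348). No library of a group was in the range of the other, and the log2 fold change was 0.25 ± 0.041 (adjusted p = 6.1e-05). Psmb10, on chromosome 8 (105935735 to 105938444), rose from 160 to 201 CPM (median 185) to 186 to 245 CPM (median 213), by 0.24 ± 0.056 (adjusted p = 0.0020), and 7 of the 8 Tardbp gRNA libraries were above all Control gRNA libraries. Psmb8, on chromosome 17 (34197721 to 34201454), measured 851 to 1003 CPM (median 889) and 878 to 1072 CPM (median 925). Its log2 difference was 0.05 ± 0.041 (adjusted p = 0.31), and it passed the threshold with upper quartile scaling (0.12, adjusted p = 0.027) and with library totals (0.12, adjusted p = 0.016).

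Nlrc5, on chromosome 8 (94434356 to 94527272), encodes the transactivator of class I genes, which is drawn to their promoters by factors bound at the X and Y boxes. It measured 73.1 to 110 CPM in Control gRNA (median 88.6) and 85.3 to 124 CPM in Tardbp gRNA (median 109). Only 3 Tardbp gRNA libraries were above all Control gRNA libraries. Nlrc5 was called (0.27 ± 0.092, adjusted p = 0.023), but this was the weakest call of the 10 and was lost without any 1 of C1, C8, T1, T5, T7 or T8 (adjusted p up to 0.085).

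The extremes of a group often fell in the same libraries. T3 was the highest Tardbp gRNA library in 7 of the 10 genes, with Tap1, B2m and Nlrc5 the exceptions, and T4 was the lowest in 5. Among Control gRNA libraries C4 was the highest in 5 and C3 the lowest in 5. The coefficient of variation within a group was 4.78 to 11.5% in the genes other than Nlrc5 and 15 and 12.6% in Nlrc5.

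Per transcript length, the genes of the class I molecule had the highest levels of the 10. In Control gRNA the order of the levels, as counts per transcript length scaled to a common total (TPM, mean ± SD, n = 8), ran from B2m (3193 ± 125) through H2-D1 (2517 ± 159), H2-K1 (1838 ± 124) and Psmb8 (1029 ± 40.3) to Psmb9 (356 ± 23.9) and Tapbp (344 ± 28.9). Psmb10 (243 ± 19.1), Tap1 (195 ± 18.3) and Tap2 (172 ± 15.2) were lower, and Nlrc5 was at 21.9 ± 4.13. Neighbours overlapped in Control gRNA for Psmb9 and Tapbp, Psmb10 and Tap1, and Tap1 and Tap2. The order was the same in Tardbp gRNA, where H2-D1 (2904 ± 305) and H2-K1 (2228 ± 182) overlapped, as did Tapbp and Psmb10, and Tap1 and Tap2.

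**Figure D2:**
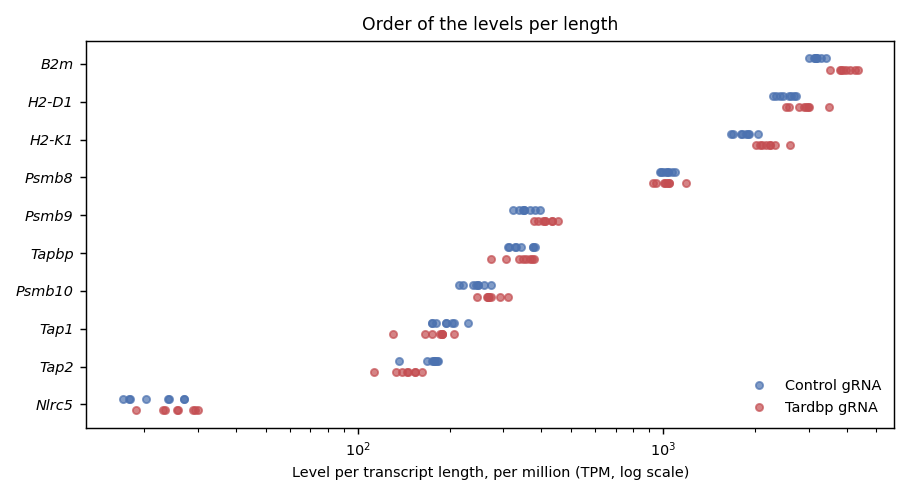
Level of each gene per transcript length, as TPM on a log axis, with 1 point a library, 8 of Control gRNA in blue and 8 of Tardbp gRNA in red. B2m, H2-D1 and H2-K1 are the 3 highest in both groups and Nlrc5 is the lowest, near 20 to 30.

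Ratios within a library do not depend on how libraries are scaled to each other. Psmb10 rose against its constitutive counterpart Psmb7. The log2 ratio was -0.37 ± 0.14 (SD, n = 8) in Control gRNA and -0.08 ± 0.14 in Tardbp gRNA, where all 8 libraries were above the Control gRNA median. The difference was 0.29 ± 0.071 (SE, exact two-sided permutation test, p = 0.00031, 0.0012 after adjustment over the 4 ratios). Psmb9 to Psmb6 differed by 0.10 ± 0.053 (exact adjusted p = 0.15) and Psmb8 to Psmb5 by -0.06 ± 0.045 (exact adjusted p = 0.19). Psmb6 had itself risen (log2 fold change 0.18 ± 0.053, adjusted p = 0.010, not called without C6 and C7 or without T1, T4 and T6), while Psmb5 (0.12 ± 0.049, adjusted p = 0.062) and Psmb7 (-0.05 ± 0.040, adjusted p = 0.28) were not called. The ratio of B2m to H2-K1 plus H2-D1 differed by 0.08 ± 0.054 (exact adjusted p = 0.19), so that a change of the light chain against the heavy chains was not shown in all 16 libraries. It passed the threshold among the libraries numbered 4 to 8 (0.15, exact adjusted p = 0.032) and without T3 (0.12, exact adjusted p = 0.032), and Psmb9 to Psmb6 did so without T4 (0.13, exact adjusted p = 0.021).

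**Figure D3:**
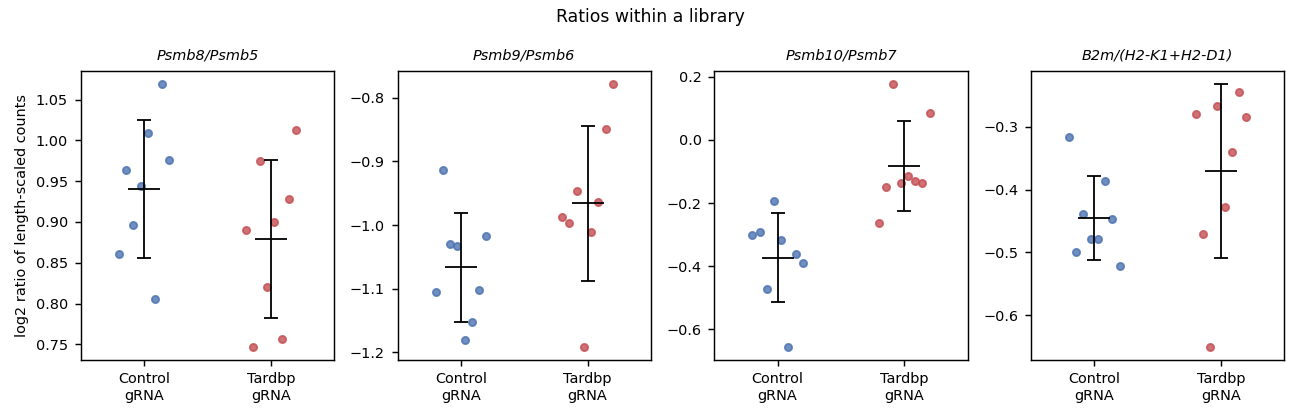
Log2 ratio of length-scaled counts within each library for 3 immunoproteasome subunits over their constitutive counterparts and for B2m over the classical heavy chains, with mean and SD of 8 libraries a group. The groups differ by 0.29 in Psmb10/Psmb7, where T1 lies within the Control gRNA range, and overlap widely in the other 3 ratios.

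The other genes of the pathway are given by role, and each count stands beside the 23.5% of all genes called higher and the 23.3% called lower. Of 14 tested heavy chains outside the classical ones, 6 rose and 1 fell, with a median log2 fold change of 0.29. Cd1d1, which presents lipids, rose by 0.60 ± 0.10 (adjusted p = 7.3e-05) and H2-T23, which encodes Qa-1 and is read by receptors of natural killer cells, by 0.46 ± 0.081 (adjusted p = 0.00014). H2-Q10, known as a secreted class I molecule of liver, fell by 0.56 ± 0.21 (adjusted p = 0.034), a call that was lost with library totals, with upper quartile scaling and with no low-count filter. With RNA concentration as a covariate 2 of the 14 were called, both higher, and the calls of Cd1d1, H2-T23 and H2-Q10 were lost.

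The chaperones of the endoplasmic reticulum that fold the heavy chain fell. In all, 4 of 6 genes of peptide loading and trimming were lower and 1 was higher, with a median of -0.41. Canx, which encodes calnexin, went from 780 ± 66.3 to 461 ± 51.5 CPM (log2 fold change -0.76 ± 0.068, adjusted p = 1.3e-07). Pdia3, the ERp57 of the loading complex, fell by 0.44 ± 0.050 (adjusted p = 1.2e-06), Calr, which encodes calreticulin, by 0.39 ± 0.050 (adjusted p = 4.6e-06) and Erap1, the aminopeptidase that trims peptides to fit class I, by 0.43 ± 0.044 (adjusted p = 4.0e-07). None of these 4 overlapped between the groups. These chaperones also fold proteins other than class I.

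In the cytosol, 3 of 4 genes that activate or assemble the proteasome rose, and all 5 peptidases fell. Psme1 (0.30 ± 0.045, adjusted p = 2.2e-05) and Psme2 (0.40 ± 0.060, adjusted p = 2.7e-05) encode the PA28 activator, and Pomp (0.31 ± 0.041, adjusted p = 6.6e-06) the factor that assembles proteasomes. All 3 rose, while Psme3, which encodes the nuclear PA28 gamma, fell by 0.39 ± 0.040 (adjusted p = 4.6e-07). The peptidases, which break peptides down, had a median of -0.49. The lowest were Thop1 (-0.81 ± 0.082, adjusted p = 3.6e-07), Lap3 (-0.65 ± 0.073, adjusted p = 1.2e-06) and Tpp2 (-0.49 ± 0.070, adjusted p = 1.7e-05). With RNA concentration as a covariate 3 of the 5 were called, all lower, among them Thop1 and Tpp2 but not Lap3.

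Of 18 transcription factors and interferon receptors with their kinases, 7 rose and 4 fell, with a median of 0.06. Irf1, an activator of class I, Tap1 and Psmb9 promoters, rose from 160 ± 18.1 to 208 ± 12.3 CPM with no overlap (0.38 ± 0.062, adjusted p = 6.6e-05). Ifnar2, a chain of the receptor for type I interferon, rose by 0.68 ± 0.078 (adjusted p = 1.4e-06) and Jak2, a kinase of the interferon gamma receptor, by 0.39 ± 0.11 (adjusted p = 0.0064). Socs1, an inhibitor of interferon signalling, rose by 0.53 ± 0.21 (adjusted p = 0.043), a call that was lost with no low-count filter, with the replicate block and without C6 and C7. Ifngr1 fell by 0.22 ± 0.073 (adjusted p = 0.019), a call that was lost with upper quartile scaling, with library totals and without T1, T4 and T6. With RNA concentration as a covariate, Irf1 and Ifnar2 were called of the 18, and Jak2, Socs1 and Ifngr1 were not. Ifngr2 was under 1 CPM on average in both groups (0.968 and 0.843). Rfx5 (0.01 ± 0.10, adjusted p = 0.94), a factor that binds the X box and recruits Nlrc5, was not called.

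**Figure D4:**
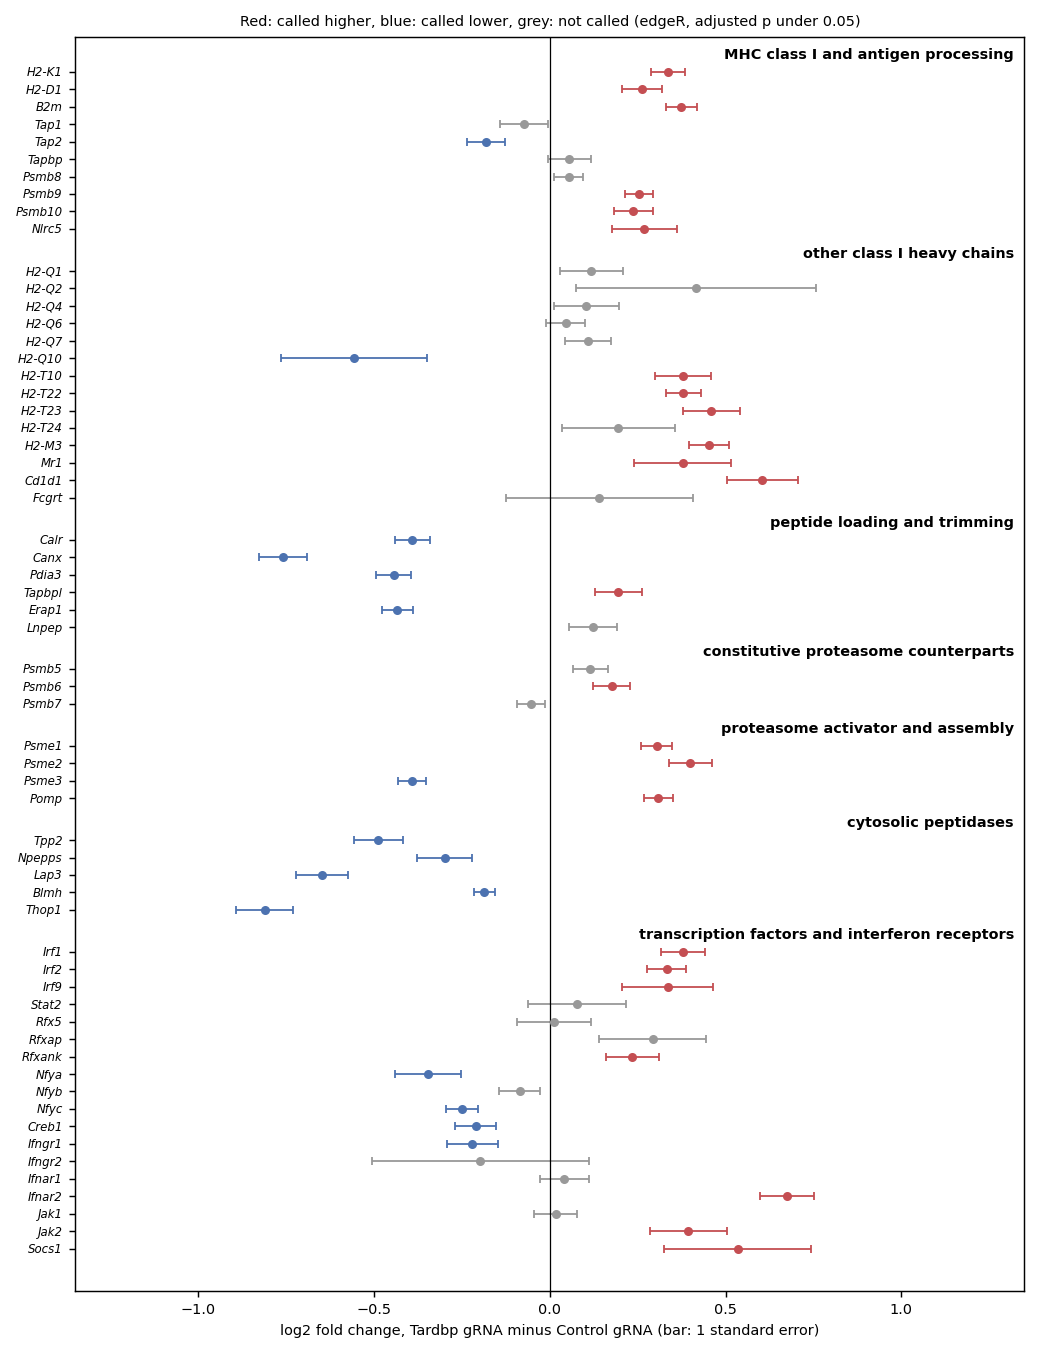
Log2 fold change with 1 SE of each tested gene, Tardbp gRNA minus Control gRNA, by role, with red for called higher, blue for called lower and grey for not called in edgeR. The 5 cytosolic peptidases and the chaperones Canx, Calr and Pdia3 are to the left of 0, and H2-K1, H2-D1 and B2m are to the right.

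Other cells in a sort also bring class I RNA, and fewer cells of a type and less RNA per cell cannot be told apart in these bulk libraries. The 6 genes of the CD8 list were all higher in Tardbp gRNA, with a summed level of 3702 to 4835 CPM against 2529 to 3167 CPM in Control gRNA. Cd3g rose by 0.75 ± 0.071 (adjusted p = 2.1e-07), Cd8b1 by 0.67 ± 0.094 (adjusted p = 1.3e-05) and Cd8a by 0.62 ± 0.066 (adjusted p = 6.8e-07). Whether this change has a part in that of the class I genes was not tested.

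MHC class II genes, which mark antigen-presenting cells, summed to 134 to 469 CPM in Control gRNA and 135 to 253 CPM in Tardbp gRNA, with C6 and C7 highest. Of 10, H2-Oa and H2-Ob were called, both higher, 4 had an unadjusted p under 0.05, and the median log2 difference was -0.14. The more abundant Cd74 (-0.52 ± 0.24, adjusted p = 0.085) and H2-Ab1 (-0.68 ± 0.31, adjusted p = 0.085), named after their values were seen, were not called in all 16 libraries. H2-Ab1 was called lower with the replicate block, and Cd74, H2-Aa and H2-Ab1 were called lower in the libraries numbered 4 to 8 alone. Myeloid markers summed to 24.7 to 42.9 CPM in Control gRNA and 30.9 to 89.3 CPM in Tardbp gRNA, where Lyz2 was called higher (1 of 5) and was highest in T1, T4 and T6. The median log2 difference of this list was 0.76, 4 of the 5 had an unadjusted p under 0.05, and DESeq2 called 3 higher (Lyz2, Cd68 and Csf1r) and 1 lower (Itgam). With the replicate block 4 were called, all higher. In B cell markers, which summed to 6.99 to 13.8 and 7.28 to 18.9 CPM, 0 of 5 were called in edgeR or DESeq2 and 1 had an unadjusted p under 0.05. In CD4 T cell markers, at 1.38 to 9.90 and 2.25 to 7.26 CPM, it was 0 of 3 by each measure. The sums of stromal markers were 26.0 to 46.3 and 45.3 to 64.3 CPM, and Pecam1 was called higher (1 of 3). Nearly all of that sum was Pecam1 (36.3 and 58.2 CPM on average), and the other listed genes were at or below 0.258 CPM on average. Dendritic cell markers summed to 18.9 to 36.9 and 28.0 to 40.3 CPM, with Zbtb46 called (1 of 4). Most of that sum was Itgax (23.3 and 28.7 CPM on average), named after its values were seen. Red cell precursor markers summed to 0.442 to 17.4 and 9.02 to 181 CPM, with the 4 globin genes called (4 of 4) and T4 and T1 highest. Pax5, a defining gene of B cells, and Siglech, of plasmacytoid dendritic cells, were at or near 0 in both groups.

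Without T1, T4 and T6, the same 7 genes were called, and the log2 fold changes of B2m and H2-K1 were 0.36 in both. Without C6 and C7, 6 were called, all but Nlrc5 (adjusted p = 0.15). Both sets of libraries were left out after the data had been seen. Without T1, T4 and T6, 0 of the 4 globin genes (median log2 difference 1.36) and 0 of 5 myeloid markers were called. The globin genes were also not called (0 of 4) with RNA concentration as a covariate. With log2 RNA concentration as a covariate, 4 of the 10 were called, B2m (0.51, adjusted p = 0.0017), H2-K1 (0.42, adjusted p = 0.0090), Psmb9 (0.34, adjusted p = 0.013) and Psmb10 (0.38, adjusted p = 0.031), all higher.

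The deposited letters gave 3 male and 5 female libraries in Control gRNA and 5 male and 3 female in Tardbp gRNA. With this letter as a covariate the same 7 genes were called. The difference between the letters in the response to the guide was called in none of the 10 genes and in 0 of the 16650 tested (0%) by edgeR. At an unadjusted p under 0.05 it was 662 of all genes and 2 of the 10, B2m and Tapbp.

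The genes' annotated transcripts numbered 72, of which 61 passed the filter, and in edgeR 12 were called higher and 0 lower. Also at an unadjusted p under 0.05, 0 were lower. Among all 40897 transcripts tested, 8.50% were called higher and 8.14% lower. The 12 were B2m-201, 2 of H2-D1, 7 of H2-K1 and 2 of Psmb9. For H2-K1 they took in both main coding forms, H2-K1-205 (55.0 ± 1.36% of the gene's counts in Control gRNA, log2 fold change 0.31 ± 0.051, adjusted p = 0.00042) and H2-K1-201 (27.2 ± 1.75%, 0.27 ± 0.070, adjusted p = 0.015), together with minor forms of under 5% of the counts. H2-D1-202 held 98.9% of the counts of its gene in Control gRNA and 98.8% in Tardbp gRNA. The main form of Psmb9, Psmb9-204 (74.6 ± 6.54% and 69.6 ± 3.22%), was not called.

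The share of a transcript in its gene was called for 0 of the 60 transcripts of these genes in limma, and for 0.63% of the 32701 transcripts tested, and 5 of the 60 had an unadjusted p under 0.05. The largest difference in share was 0.05. In Psmb8 the authors' counting spread the reads over 1 coding form (Psmb8-201, 38.8 ± 8.25% in Control gRNA and 39.8 ± 26.7% in Tardbp gRNA) and forms with a retained intron. In Tap2 a form with a retained intron, Tap2-202, took 61.4 ± 16.2% and 57.0 ± 20.3%. These wide spreads between libraries of a group also enter the levels per length of both genes.

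Splicing was given as Psi, the fraction in which a segment (node) of the RNA is included, with 1 value for each group of 8 libraries, so no test over libraries was made. Of 119 nodes in the 10 genes, 3 differed by over 10 points between the groups (2.52%), and all 3 were in Nlrc5. Over all 125520 nodes in the table the share was 4.70%. In the other 9 genes the largest difference was 2.84 points, in H2-K1.

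The widest was a coding exon of Nlrc5 at chr8:94481976-94482065 (GRCm38, plus strand), exon 12 of the 53 of transcript Nlrc5-207, the form that held 88.8 ± 7.34% of the gene's counts in Control gRNA. Its Psi was 0.763 for Control gRNA and 0.562 for Tardbp gRNA (-20.0 points). The exon is shown because it had the widest difference of Psi in these genes. It has 90 bases, a whole number of 30 codons, so that leaving it out would keep the reading frame.
Nlrc5 exon 12: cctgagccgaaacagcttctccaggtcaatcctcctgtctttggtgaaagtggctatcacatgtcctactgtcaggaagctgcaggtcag

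Every annotated transcript that spans this exon includes it, so its inclusion could not be rebuilt from the transcript counts of each library. The remaining nodes over 10 points were at the 3′ end of Nlrc5. The node of 1286 bases at 94525979 to 94527264 went from a Psi of 0.839 to 0.721, and the last node, of 8 bases at 94527265 to 94527272, from 0.161 to 0.279. The other 50 nodes of the gene differed by at most 5.70 points. The total reads behind each Psi were not used here, so the depth of these values is unknown.

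**Figure D5:**
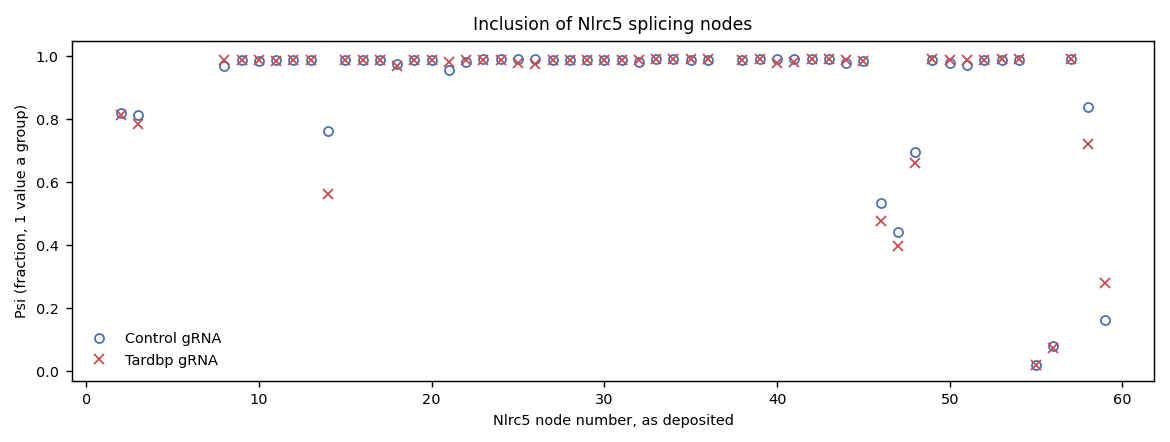
Psi of the 53 deposited nodes of Nlrc5 by node number, with open blue circles for Control gRNA and red crosses for Tardbp gRNA, 1 value a group and no error. Node 14 is at 0.763 and 0.562, nodes 58 and 59 at the 3′ end differ in opposite directions, and most other nodes coincide near 1.

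Some of these genes overlap others, and strand was not stated for the counting, so reads of overlapping genes cannot be told apart. Psmb9 and Tap1 run in opposite directions and share 212 bases. B2m lies wholly within the model of Patl2, which was listed at 0 in every library. Tapbp overlaps Zbtb22 on the same strand (12.7 to 22.7 CPM), and Nlrc5 overlaps the long noncoding RNA gene 9330175E14Rik (4.59 to 14.1 CPM). The antisense genes that overlap Tap2, Psmb8, Psmb10 and Tapbp reached at most 3.21 CPM.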

How the data were processed

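RNA of sorted CD8+ T cells was read as pairs of 100 bases from 16 SMART-Seq v4 and Nextera XT libraries on 1 flow cell. Groups and numbers came from the labels. By their labels and methods, the authors used HISAT2 2.1.0 to align reads to mm10 and StringTie 2.1.0 for estimated counts of genes and transcripts, with no normalization. The deposited counts were whole numbers and went unrounded into the tests. The authors ran Whippet and deposited Psi per node as a fraction, 1 value a group. Which of the 2 Psi columns is which group was taken from the study's supplementary header. Deposited counts of read pairs came from the facility (29714709 to 48164083 a library). Columns with the authors' differences of Psi and their probabilities were not used, nor were 10 columns of each count table that match no sample here. Names and coordinates are those of GENCODE M21 (GRCm38), and 26345 lines naming no annotated gene, with 0.0836 to 0.132% of the counts, were left out.

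Gene counts were fitted with edgeR 4.0.16 in R 4.3.3 (quasi-likelihood, TMM, filterByExpr with a minimum count of 10, minimum total of 15 and proportion of 0.7), two-sided, over all 16 libraries, with Benjamini-Hochberg adjustment over all genes tested and a threshold of 0.05. Transcripts were tested alike, transcript shares with limma 3.58.1 at a difference over 0.1, and ratios by exact permutation over 12870 splits in Python 3.11.15. The smallest p this allows is 0.000155. Counting error is small at this depth, PCR copies were counted, and the p-values measure the spread between libraries of separate recipients. Whether the libraries of a group shared an electroporation is not stated, so spread between electroporations may not be covered. Fits were tested on simulated data. The genes and lists described here were chosen with earlier results of these data known. All 10 genes of the pathway are named. Of each other list the 3 largest called changes were named, with a fixed set of factors, receptors, chaperones and proteasome genes, of which 1 gene is not reported here. Alternatives were DESeq2 1.42.0, other scalings, no filter, a replicate block, blocks or subsets of library numbers, covariates for RNA concentration and sex, and libraries left out.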

Additional observations from a re-analysis of the deposited data

Results flagged for a closer look

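In 28 groups of 8 values (the 10 genes in CPM and the 4 ratios, in each guide group), 4 held a library whose gap to its nearest neighbour was over Dixon's critical share of the group's range, where chance flags about 1 in 20, or 1.4 here. In Tap2, C8 was at 265 CPM, below the other Control gRNA libraries (292 to 309), and T4 at 204 CPM, below the other Tardbp gRNA libraries (256 to 281). In Psmb8, C1 was at 1003 CPM, above the others (851 to 913), and T3 at 1072 CPM, above the others (878 to 936). T4 was also the library highest in globin genes and lowest in Tap1, and T3 the highest in 7 of the 10 genes. Leaving out any 1 of these libraries changed no call of Tap2 or Psmb8.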

How the results depend on the processing

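B2m, H2-K1, Psmb9 and Psmb10 kept their direction under every alternative run. H2-K1 kept its call under all of them, and B2m, Psmb9 and Psmb10 under all but the 3 + 3 libraries numbered 1 to 3. With those alone, 1 of the 10 genes (H2-K1) and 1696 genes in all were called, and the log2 fold changes were 0.26 in B2m, 0.27 in H2-D1, 0.17 in Psmb9, 0.19 in Psmb10, 0.18 in Nlrc5 and -0.17 in Tap2, none of them called. With RNA concentration as a covariate 4 of the 10 and 2697 genes in all were called, and the calls of H2-D1 (0.29), Tap2 (-0.071) and Nlrc5 (0.22) were lost. Upper quartile scaling and library totals gave -0.11 and -0.11 in Tap2, no longer called, and 0.12 and 0.12 in Psmb8, now called. Nlrc5 was not called with the libraries numbered 4 to 8 alone (0.30, adjusted p = 0.071) or without C6 and C7 (0.19), which were chosen after the data had been seen. Leaving out 1 library at a time gave 0.21 to 0.30 in Nlrc5, 0.074 to 0.13 in the ratio Psmb9 to Psmb6 and 0.058 to 0.12 in that of B2m to the heavy chains, which was 0.15 with the libraries numbered 4 to 8. The cause of these losses was not tested, and the subsets hold fewer libraries. Same-numbered libraries of the groups correlated at -0.0048 to 0.16, over 0.1 in 2 of 8 pairs. The samples were treated as unpaired in the main fit, and whether same-numbered libraries shared a batch cannot be told from these correlations. The replicate block gave 7645 called genes and 6 of the 10, Nlrc5 (0.27, adjusted p = 0.056) falling out, and 1 of 8 numbers correlated best with its own in both directions. All 4 ratio differences kept their direction and side of the threshold under the block and on unscaled counts. Of the 72 transcripts 12 were called, 8 with no filter, 9 under the block and 12 with DESeq2's size factors.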
